A study of Mus musculus with 6 samples.

Results

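The hyaluronan and versican network was taken as 9 named genes, Vcan, Acan, Hapln1, Hapln3, Has1, Has2, Cd44, Ugdh and Hyal2, chosen by symbol and not by their values. Of these, 6 had a row among the 18810 Ensembl genes of the expression table, and Acan, Hapln3 and Has1 had none in the table used here and were not analysed. The study sequenced RNA from atrioventricular canal regions of mouse hearts at embryonic day 15.5, from 3 Scx-/- embryos and 3 Scx+/+ wild-type littermates on the C57BL/6 strain, with no other allele or agent named. Scx encodes scleraxis, a basic helix-loop-helix transcription factor of tendons and valves, and Scx-/- embryos lack it in every tissue from conception, so that effects within the valve and from outside it cannot be told apart. The regions held the mitral, tricuspid and aortic valves and were cut out by hand without sorting of cells. Values are RPKM, read counts scaled to exon length and library size, as deposited by the authors.

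Hyaluronan is a long unsulfated sugar chain that hyaluronan synthases such as Has1 and Has2 extrude from the cell surface, from a sugar precursor that Ugdh makes. Versican (Vcan) and aggrecan (Acan) are large chondroitin sulfate proteoglycans that bind hyaluronan at their amino-terminal end, and the link proteins Hapln1 and Hapln3 hold each such complex together. Cd44 is a cell surface receptor for hyaluronan and Hyal2 a membrane-anchored enzyme that cuts it. This swollen, hydrated matrix fills the cardiac jelly and the endocardial cushions from which the valves form, and the cushions do not form without Has2 or Vcan.

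The genes lie at several places in the genome (build mm9, GENCODE annotation). Vcan (ENSMUSG00000021614) runs from 89794915 to 89882117 on the minus strand of chromosome 13, and Hapln1 (ENSMUSG00000021613) from 89680241 to 89751437 on the plus strand, so that the proteoglycan and its link protein face each other end to end across 43.5 kb. Acan and Hapln3 are arranged in the same way on chromosome 7, with 40 bases between their ends. Has2 (ENSMUSG00000022367) lies on chromosome 15 from 56497182 to 56526094, on the same chromosome as Scx and 19.8 Mb from it. Cd44 (ENSMUSG00000005087) lies on chromosome 2 from 102651298 to 102741822, Ugdh (ENSMUSG00000029201) on chromosome 5 from 65804441 to 65827185 and Hyal2 (ENSMUSG00000010047) on chromosome 9 from 107471448 to 107475107. Exon lengths ran from 1893 nt in Hyal2 to 14467 nt in Vcan.

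Because basic helix-loop-helix factors bind the E box CANNTG, the 250 bases before the annotated start were searched for it. Those of the neighbouring genes Vcan and Hapln1, whose starts lie at the outer ends of the pair, are shown. They are as read from the mm9 genome, 5′ to 3′ on the strand of the gene, with E boxes in capitals. The windows are chr13:89882118-89882367 (minus strand) for Vcan and chr13:89679991-89680240 (plus strand) for Hapln1.
Vcan: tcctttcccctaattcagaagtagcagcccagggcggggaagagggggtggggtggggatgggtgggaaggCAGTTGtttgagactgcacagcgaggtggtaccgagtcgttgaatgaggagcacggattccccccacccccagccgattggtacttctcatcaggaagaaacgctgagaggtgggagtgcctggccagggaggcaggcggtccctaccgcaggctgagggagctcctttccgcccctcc
Hapln1: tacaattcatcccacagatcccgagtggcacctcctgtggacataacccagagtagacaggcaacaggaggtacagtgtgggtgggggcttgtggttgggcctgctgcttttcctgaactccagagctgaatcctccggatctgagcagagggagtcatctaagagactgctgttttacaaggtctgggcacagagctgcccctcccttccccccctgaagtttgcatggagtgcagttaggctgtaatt
Vcan held 1 E box, CAGTTG, whose first base is at -179 from the start. Ugdh also held 1, CACTTG, at -209, and the windows of Hapln1, Cd44 and Hyal2 held none. The motif reads the same on both strands as CANNTG and was found in 61.45% of the 18691 windows of listed genes, and a match is a description of these letters only.

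Libraries held 46429945 to 68571109 reads by values recovered from RPKM, and the 10 most abundant genes took 30.7% to 43.9% of the RPKM sum in 5 libraries and 56.9% in Scx+/+ replicate 2. Because Scx-/- replicate 3 and Scx+/+ replicate 2 stood apart from the rest for several network genes, values of the network genes without them are given. The study checked the genotype on exon 1 of Scx, which a whole-gene value does not resolve, so the values of Scx do not check the labels. Scx itself measured 33.6, 18.6 and 82.9 RPKM in Scx-/- and 29.5, 58.3 and 26.0 RPKM in Scx+/+. Its 2 highest libraries were the 2 lowest for Vcan, with Pearson's r of -0.90 over the 6 libraries and -0.73 without the 2 libraries farthest from the median of Vcan, as a description. The relation was not particular to Vcan, as r of Scx was -0.86 with Ugdh and -0.85 with Cd44. With Hapln1, Has2 and Hyal2 it was -0.53, -0.36 and 0.48. Scx has 1136 nt of exon. Genes under 2000 nt had median deviations of 0.07 and 0.13 in these 2 libraries, and genes of at least 6000 nt -0.15 and -0.24. The part of exon length was not tested.

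None of the 6 genes differed between genotypes past the threshold. In limma on log2(RPKM + 0.1), 0 of 6 were at an unadjusted p below 0.05, where 3.89% of all 18810 genes were (2.82% with higher and 1.06% with lower values in Scx-/-), and 0 of 6 at an adjusted p below 0.05, as for all genes (0.0%). A gene-by-gene test on the same log2 values with no pooling of the spread also called 0 of the 6. In bulk RNA, fewer cells of a type and less RNA per cell cannot be told apart. The fold change on this scale was above 1 in Scx-/- for 4 genes, with a median log2 fold change of 0.19 over the 6 genes against 0.105 over all genes, 63.8% of which had a log2 fold change above 0. The libraries of the genotypes did not overlap for 2 of the 6, Hapln1 and Hyal2, against 9.5% of all genes. The smallest p that an exact permutation test of 3 against 3 libraries can give, 0.1 two-sided, goes with such a separation.

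**Figure D1:**
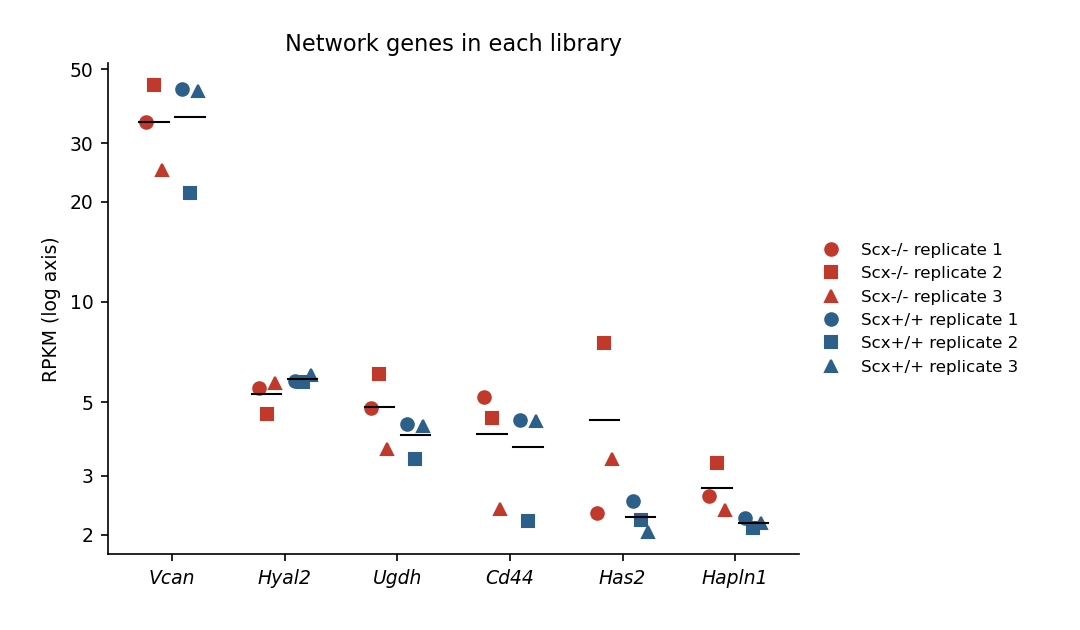
RPKM on a log axis of the 6 measured network genes in each library, with Scx-/- in red, Scx+/+ in blue, replicates by symbol and the mean of each genotype as a black line. Vcan lay between 21.2 and 44.7 RPKM and the other genes between 2.03 and 7.52 RPKM.

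Vcan stood far above the rest of the network. Its mean over the 6 libraries was 35.4 RPKM ± 10.2 (SD, n = 6), at the 88.8th percentile of all listed genes and 6.35 times that of Hyal2, the next gene, and it was the highest of the 6 genes in 6 of 6 libraries. It made up 57.6% to 69.5% of the summed RPKM of the 6 genes. Hyal2 followed with a mean of 5.57 RPKM, above Ugdh (4.40 RPKM) in 5 of 6 libraries. Ugdh and Cd44 (3.84 RPKM) were in that order in 3 of 6 libraries, as were Cd44 and Has2 (3.33 RPKM), so these neighbours did not differ beyond their spread. Hapln1 had the lowest mean, 2.46 RPKM, and was below Has2 in 4 of 6 libraries. No value of the 6 genes was at the fill-in value of low genes, and the smallest number of reads behind any value was 434.

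Vcan, the core protein that carries the chondroitin sulfate chains, measured 34.7, 44.7 and 24.9 RPKM in the Scx-/- libraries, in the order of their numbers, against 43.5, 21.2 and 43.1 RPKM in the Scx+/+ libraries. The genotypes overlapped over almost their whole range, with Scx-/- replicate 3 and Scx+/+ replicate 2 low and the other 4 libraries high. Scx-/- minus Scx+/+, Vcan differed on the log2 scale by -0.01 ± 0.32 (SE; limma, adjusted p = 0.998), a fold of 0.991 with a 95% interval of 0.603 to 1.63. Each library held 14268 to 43339 reads of Vcan. They were counted over the whole gene, so splice forms of Vcan were not told apart. Leaving out Scx+/+ replicate 2 gave -0.35, without Scx-/- replicate 3 it was 0.21, and without both, an alternative chosen after seeing the data, it was -0.14 (standard error 0.16).

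Hapln1, the link protein that locks versican to hyaluronan, was 2.61, 3.28 and 2.37 RPKM in the Scx-/- libraries and 2.25, 2.09 and 2.16 RPKM in the Scx+/+ libraries. Each Scx-/- library was above each Scx+/+ library, though the gap between the nearest was small. Their means were 2.75 ± 0.469 RPKM (SD, n = 3) against 2.17 ± 0.0799 RPKM for Scx+/+ (SD, n = 3). For the link protein the log2 difference came to 0.32 ± 0.25 (SE; limma, adjusted p = 0.967), a fold of 1.25 with a 95% interval of 0.837 to 1.86. Leaving out any 1 library moved it to between 0.19 and 0.42, and centring each library on its median gave 0.21.

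Has2, the main hyaluronan synthase of the cushions, had the largest difference of the 6 genes. It was 2.31, 7.52 and 3.38 RPKM in the Scx-/- libraries and 2.52, 2.21 and 2.03 RPKM in the Scx+/+ libraries. The Scx+/+ libraries lay close together, Scx-/- replicate 2 lay far above every other library, and Scx-/- replicate 1 fell within their range. The coefficient of variation was 62.5% in Scx-/- and 10.8% in Scx+/+. For Has2 the log2 difference came to 0.77 ± 0.40 (SE; limma, adjusted p = 0.967), a fold of 1.71 with a 95% interval of 0.909 to 3.20, and the unadjusted p was 0.0871 in the same limma fit. Scx-/- replicate 2 decided its size, since the log2 difference came to 0.31 without that library. Without Scx-/- replicate 1 it was 1.14, at an unadjusted p of 0.0284 in limma. Without Scx-/- replicate 3 and Scx+/+ replicate 2 it was 0.86. Has2as, a gene on the opposite strand that shares 182 exon bases (4.3%) with Has2, was 1.06 RPKM in Scx-/- replicate 2 and at most 0.524 RPKM in the other 5 libraries. The methods name no strand for the counting, so reads of the shared bases cannot be told apart.

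Ugdh, which makes the UDP-glucuronic acid used for hyaluronan and for chondroitin sulfate, was 4.81, 6.06 and 3.61 RPKM in the Scx-/- libraries and 4.30, 3.38 and 4.25 RPKM in the Scx+/+ libraries. Scx-/- replicate 2 was again the highest, and the genotypes overlapped. Ugdh differed on the log2 scale by 0.25 ± 0.26 (SE; limma, adjusted p = 0.967), a fold of 1.19 with a 95% interval of 0.796 to 1.78. Without Scx-/- replicate 3 and Scx+/+ replicate 2, its lowest libraries, the value was 0.33 ± 0.19 (SE).

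Cd44, the receptor, was 5.17, 4.47 and 2.39 RPKM in the Scx-/- libraries and 4.42, 2.20 and 4.38 RPKM in the Scx+/+ libraries. As for Vcan, Scx-/- replicate 3 and Scx+/+ replicate 2 were about equally low and the other 4 libraries high. Cd44 differed on the log2 scale by 0.12 ± 0.37 (SE; limma, adjusted p = 0.988), a fold of 1.09 with a 95% interval of 0.604 to 1.96. Its sign turned with 1 library, to -0.20 without Scx+/+ replicate 2 and to -0.09 without Scx-/- replicate 1. Without both low libraries it was 0.12 ± 0.17 (SE). The table gives Cd44 as a whole gene, so the variant exons by which its isoforms differ were not told apart.

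Hyal2, the hyaluronidase, varied least. It was 5.52, 4.61 and 5.70 RPKM in the Scx-/- libraries and 5.78, 5.75 and 6.05 RPKM in the Scx+/+ libraries. All 3 Scx-/- libraries were below the Scx+/+ libraries, with 5.704 and 5.746 RPKM for the nearest. On the log2 scale Hyal2 differed by -0.15 ± 0.20 (SE; limma, adjusted p = 0.967), a fold of 0.899 with a 95% interval of 0.660 to 1.22. Centring each library on its median gave -0.26, and the value was -0.06 without Scx-/- replicate 2.

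**Figure D2:**
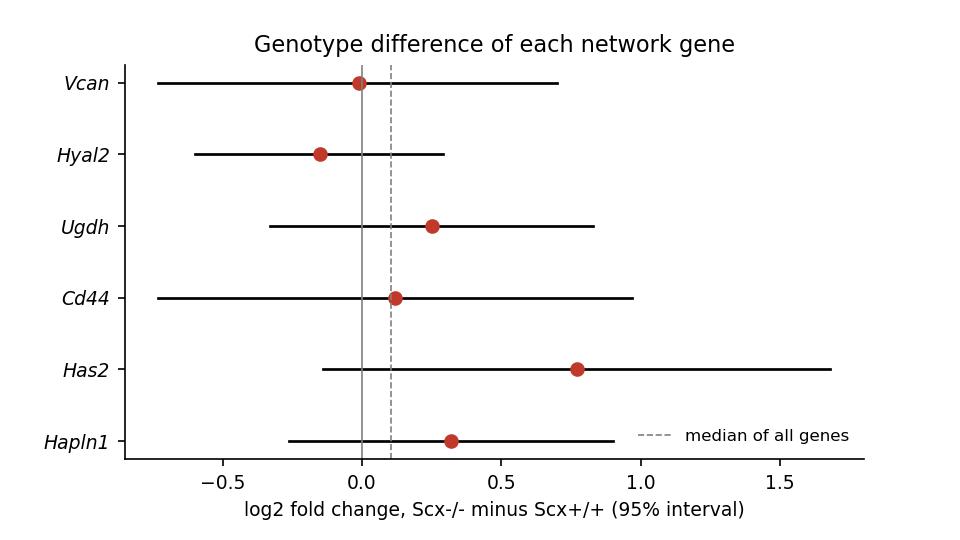
Log2 fold change of each network gene, Scx-/- minus Scx+/+, from limma on log2(RPKM + 0.1) with its 95% interval (3 libraries per genotype). All 6 intervals include 0, and the dashed line is the median of all genes at 0.105.

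Ratios between the genes within a library do not depend on a factor common to all its genes. A trend with exon length is not cancelled between genes of unlike length, and the ratios were not recomputed with such a trend removed. The ratios were compared by exact permutation of 3 against 3 libraries, where the smallest two-sided p is 0.1. No ratio could therefore pass the threshold, and the values are given as a description. The Has2 to Vcan ratio was 0.0667, 0.168 and 0.135 in Scx-/-, against 0.0578, 0.104 and 0.0473 in Scx+/+. Its log2 value differed by 0.81 between genotypes (exact permutation test, two-sided, p = 0.2, adjusted p = 0.5 over the 5 ratios tested), with 2 of the 3 Scx-/- libraries above all Scx+/+ libraries. The Hyal2 to Has2 ratio, which sets the RNA of a hyaluronidase against that of a synthase, was 2.39, 0.612 and 1.69 in Scx-/- and 2.30, 2.60 and 2.97 in Scx+/+. Its log2 value differed by -0.95 (exact permutation test, two-sided, p = 0.2, adjusted p = 0.5), and by -0.38 without Scx-/- replicate 2. The Hapln1 to Vcan ratio differed by 0.35 (exact permutation p = 0.4, adjusted p = 0.5), Ugdh to Has2 by -0.54 (exact permutation p = 0.3, adjusted p = 0.5) and Cd44 to Vcan by 0.14 (exact permutation p = 1.0, adjusted p = 1.0). The Cd44 to Vcan ratio was 0.102, 0.104 and 0.102 in the Scx+/+ libraries, although Vcan itself spanned a 2-fold range there, and 0.149, 0.1 and 0.0959 in the Scx-/- libraries.

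How the genes moved across the 6 libraries is given as a description. Vcan, Cd44 and Ugdh had their lowest values in Scx-/- replicate 3 and Scx+/+ replicate 2. Vcan and Cd44 were 0.44 and 0.59 below their own log2 means in Scx-/- replicate 3, and 0.68 and 0.71 below in Scx+/+ replicate 2. Pearson's r of log2(RPKM + 0.1) over the 6 libraries was 0.89 between Vcan and Cd44 and 0.78 between Vcan and Ugdh, but without the 2 libraries farthest from the median of Vcan it was -0.97 and 0.13, so these relations rest on those libraries. In Scx-/- replicate 2, Has2 was 1.32, Ugdh 0.48 and Hapln1 0.42 above their log2 means and Hyal2 was 0.26 below. Ugdh shared both features, with Pearson's r of 0.88 with Hapln1 (0.12 without the 2 libraries farthest from the median of Hapln1) and -0.79 with Hyal2 (-0.27 without the 2 farthest from the median of Ugdh). Pearson's r was 0.89 between Has2 and Hapln1 (0.90 without the 2 libraries farthest from the median of Hapln1) and -0.93 between Has2 and Hyal2 (-0.57 without the 2 libraries farthest from the median of Has2). The value of 0.90 still holds Scx-/- replicate 3, the library highest in Has2 after Scx-/- replicate 2. The pair of Has2 and Hapln1 was not recomputed without the libraries farthest from the median of Has2.

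**Figure D3:**
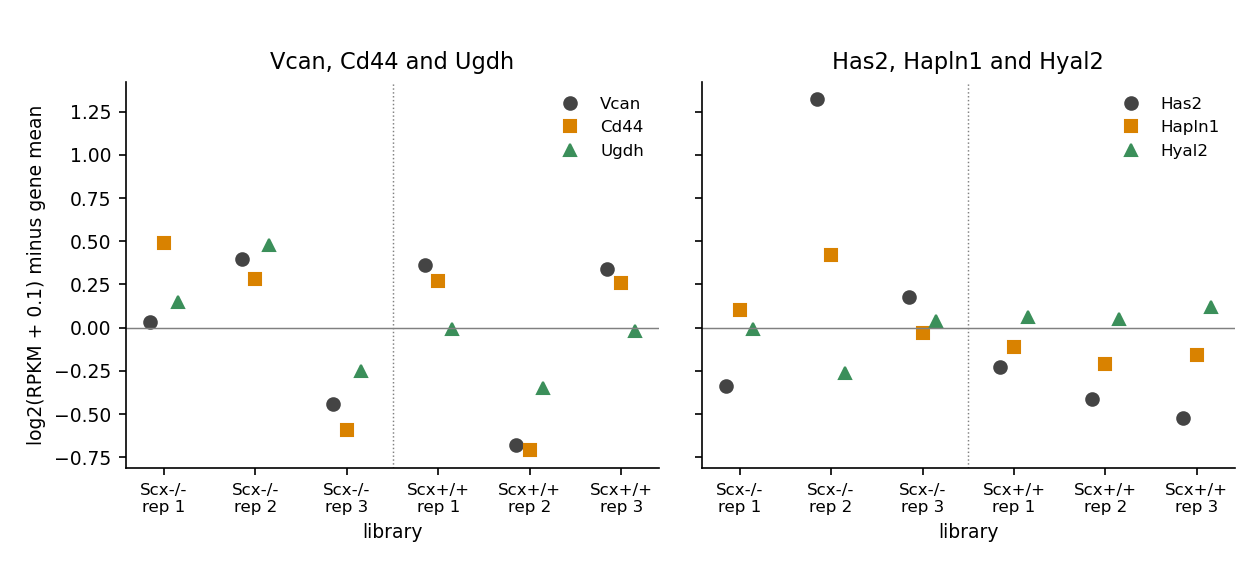
Log2(RPKM + 0.1) of each network gene minus its mean over the 6 libraries, by library. Vcan, Cd44 and Ugdh are lowest in Scx-/- replicate 3 and Scx+/+ replicate 2, and Has2 stands 1.32 above its mean in Scx-/- replicate 2.

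The low values in Scx-/- replicate 3 and Scx+/+ replicate 2 were shared by many long genes. Scx-/- replicate 3 and Scx+/+ replicate 2 were the 2 lowest libraries for 3 of the 6 network genes, for 18.5% of all genes, for 43.0% of the 2279 genes that averaged 1 RPKM or more and had at least 6000 nt of exon, and for 7.61% of the 5179 such genes under 2000 nt. Vcan, Cd44 and Ugdh are 14467, 6851 and 6799 nt long, the longest of the 6, and Has2, Hapln1 and Hyal2 are 4237, 5055 and 1893 nt. The median deviation of genes of at least 6000 nt was -0.15 in Scx-/- replicate 3 and -0.24 in Scx+/+ replicate 2, where genes under 2000 nt had 0.07 and 0.13. When a trend on exon length and GC content was removed from each library, Vcan was 0.29 and 0.35 below its mean in these libraries, Cd44 0.47 in both, and Ugdh 0.15 and 0.10. The log2 fold change of Vcan was then 0.06 (standard error 0.21), that of Has2 0.63 (standard error 0.39) and that of Hapln1 0.21 (standard error 0.21). With both libraries left out and no trend removed, Hapln1 and Hyal2 differed by 0.39 and -0.23 on the log2 scale.

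**Figure D4:**
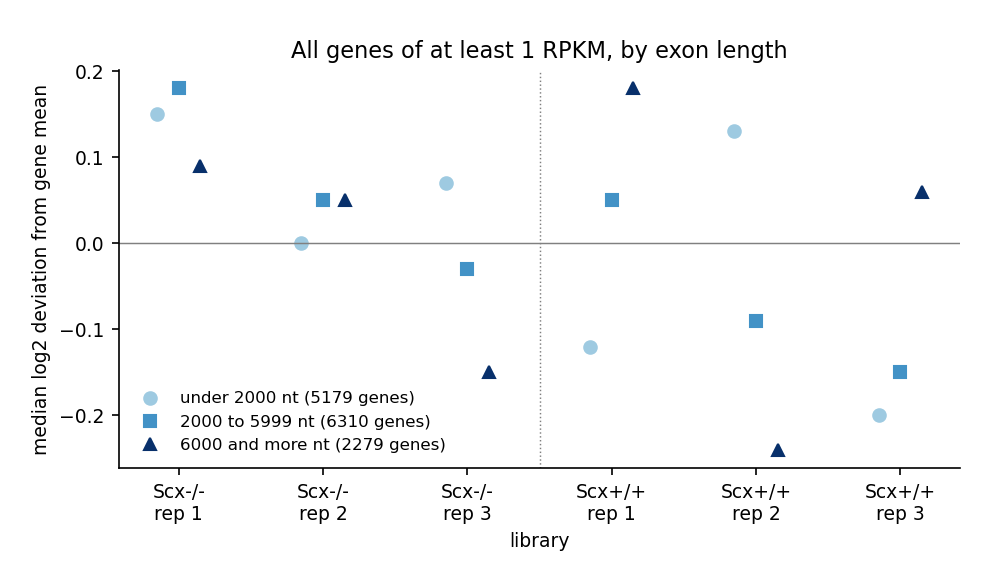
Median over genes of the deviation of log2(RPKM + 0.1) from the gene's own mean, by library and class of exon length, for genes that averaged 1 RPKM or more. Genes of at least 6000 nt lie at -0.15 in Scx-/- replicate 3 and -0.24 in Scx+/+ replicate 2, below the genes under 2000 nt.

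The genes most like Vcan over the 6 libraries, among 5294 that averaged 10 RPKM or more, were Flna (r = 0.986), Cep170 (0.985), Mllt4 (0.982), Gucy1a3 (0.979) and Luc7l2 (0.977), by Pearson's r of log2(RPKM + 0.1). Flna, the actin crosslinker filamin A, was 31.6, 38.2 and 24.3 RPKM in Scx-/- and 35.1, 23.4 and 34.5 RPKM in Scx+/+. For Has2, among 5295 genes, Prss35 (0.961), Amz2, Stt3a and Cdc16 (0.95 each) were among the 5 most alike. Prss35, a secreted protease-like protein, was 9.81, 24.9 and 12.1 RPKM in Scx-/- and 10.5, 7.07 and 9.17 RPKM in Scx+/+, with the same high library. These are likenesses over 6 points that share depth and composition of their libraries, and the best of all genes searched.

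The other genes of the network were described from 7 lists of 70 genes, of which 55 had a row. None of the 55 was at an unadjusted p below 0.05 in limma, against 3.89% of all genes, and 1 was in the gene-by-gene test without pooling. None was at an adjusted p below 0.05 in either. Their median log2 fold change was 0.01, against 0.105 over all genes, and 4 of the 55 did not overlap between genotypes, against 9.5% of all genes (7.19% with higher and 2.31% with lower values in Scx-/-). These were Uap1, Hmmr and Dse with higher and Adamts9 with lower values, named after their values were seen, and their share is not above that of all genes.

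**Figure D5:**
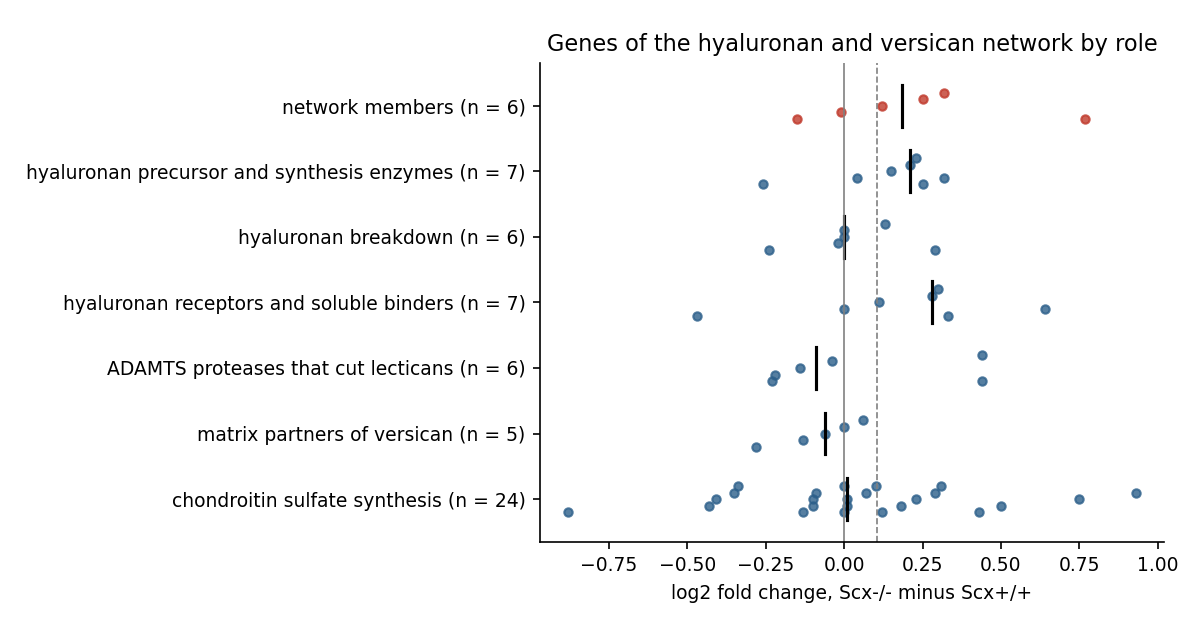
Log2 fold change, Scx-/- minus Scx+/+, of each gene by role, with the median of each role as a black bar and the median of all genes as a dashed line. The 6 network members run from -0.15 to 0.77.

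Of 7 precursor and synthesis enzymes, 0 were called and 6 had a log2 fold change above 0 (median 0.21). The most abundant was Ugp2, which makes UDP-glucose, the substrate of Ugdh. It was 98.8, 90.2 and 111 RPKM in Scx-/- and 84.8, 99.7 and 72.3 RPKM in Scx+/+. Uap1, which makes UDP-N-acetylglucosamine, the other hyaluronan precursor, was 11.2, 11.6 and 13.5 RPKM in Scx-/- and 10.2, 10.8 and 8.08 RPKM in Scx+/+ (log2 difference 0.32 ± 0.19 SE; limma, adjusted p = 0.967). Has3, the third synthase, was 0.952 to 1.59 RPKM in the 6 libraries, below Has2 in each.

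Of 8 genes of hyaluronan breakdown, 6 had a row, 0 were called and the median log2 fold change was 0.00. Tmem2, a cell surface hyaluronidase, was the most abundant, at 25.5, 21.8 and 17.1 RPKM in Scx-/- and 27.5, 16.3 and 22.2 RPKM in Scx+/+, above Hyal2 in all 6 libraries. Of 12 receptors and soluble binders, 7 had a row and 0 were called (median log2 fold change 0.28). Hmmr, a hyaluronan-binding protein also known for its place at the mitotic spindle, was 40.8, 34.6 and 37.1 RPKM in Scx-/- and 33.6, 31.3 and 26.5 RPKM in Scx+/+, a log2 difference of 0.30 ± 0.16 (SE; limma, adjusted p = 0.967). The 4 other lecticans and link proteins, Bcan, Ncan, Hapln2 and Hapln4, had no row in the table used here.

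Of 7 ADAMTS proteases that cut lecticans, 6 had a row and 0 were called (median log2 fold change -0.09). Adamts1, a versicanase, was the most abundant, at 17.1, 20.1 and 15.6 RPKM in Scx-/- and 21.1, 15.6 and 17.6 RPKM in Scx+/+. Adamts9, another versicanase, was 7.06, 7.19 and 7.32 RPKM in Scx-/- and 8.68, 8.30 and 8.25 RPKM in Scx+/+. Both genotypes were tight for this gene, and its log2 fold change of -0.22 had a standard error of 0.17 in limma (adjusted p = 0.967). Without pooling of the spread over genes the standard error was 0.03, and the gene passed the unadjusted threshold (adjusted p = 0.818, from the unmoderated limma fit).

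Of 6 matrix partners of versican, 5 had a row and 0 were called (median log2 fold change -0.06). Fbn1, the microfibril protein fibrillin 1, was 17.0, 21.7 and 13 RPKM in Scx-/- and 23.2, 15.2 and 24.6 RPKM in Scx+/+. Scx-/- replicate 3 and Scx+/+ replicate 2 were the 2 lowest libraries for 5 of the 5 genes, Fbn1, Fbn2, Fbln1, Fbln2 and Tnc, as for Vcan. The log2 fold change of Fbn1 was -0.28 ± 0.25 (SE), and -0.31 ± 0.16 (SE) with both left out.

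Of 26 genes of chondroitin sulfate synthesis, 24 had a row and 0 were called, with 14 of the log2 fold changes above 0 and a median of 0.01. Chsy1, which extends the chains, was the most abundant, at 17.2, 19.3 and 12.3 RPKM in Scx-/- and 18, 11.1 and 15.9 RPKM in Scx+/+. Dse, the epimerase that turns chondroitin sulfate into dermatan sulfate, was 7.71, 9.49 and 6.27 RPKM in Scx-/- and 6.08, 4.56 and 5.78 RPKM in Scx+/+. All Scx-/- libraries were above the Scx+/+ libraries, with a log2 difference of 0.50 ± 0.23 (SE; limma, unadjusted p = 0.057, adjusted p = 0.967). It passed the unadjusted threshold of limma without Scx-/- replicate 3 (0.65, adjusted p = 0.872).

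Markers of the cells in the tissue were set beside these values, and their part in the results was not tested. The counts of called markers stand against 3.89% of all genes called, 2.82% with higher values in Scx-/-. All 9 mesenchyme markers had a row, 4 of them had a log2 fold change above 0, and their median was -0.03. Their summed level was 395 to 544 RPKM in Scx-/- and 361 to 439 RPKM in Scx+/+, to which Postn, their most abundant gene, gave 216 to 387 RPKM and 161 to 271 RPKM. The 1 called was Tcf21 (log2 difference 0.57 ± 0.21 SE, limma, adjusted p = 0.967). Without being called, Col1a1 was lower in each Scx-/- library (-0.50 ± 0.25 SE, limma, adjusted p = 0.967). Prrx1, also not called, was higher in each Scx-/- library (0.46 ± 0.25 SE, limma, adjusted p = 0.967). Cardiomyocyte markers (10 of 10 with a row, 0 called) summed to 18840 to 26590 RPKM in Scx-/- and 16780 to 29020 RPKM in Scx+/+. The sum was highest in the libraries lowest in Vcan, Scx-/- replicate 3 and Scx+/+ replicate 2. Myl2, the most abundant marker, gave 7247 to 11260 RPKM and 5910 to 11630 RPKM, with the same highest libraries. Not every marker followed the sum, as Myl4 was lowest in Scx-/- replicate 3 (305 RPKM) and Ttn in Scx+/+ replicate 2 (92.4 RPKM). Myl2 has 1950 nt of exon, against 4637 nt for Myl4 and 116828 nt for Ttn. Myh6, with 6407 nt, was also highest in Scx-/- replicate 3 (1556 RPKM) and Scx+/+ replicate 2 (2219 RPKM). The part of the trend with exon length in the sum was not tested. By these sums the regions held much muscle RNA, although the methods describe a dissection that kept myocardium to a minimum. Endothelial markers (7 of 7, 0 called) summed to 123 to 147 RPKM and 126 to 145 RPKM, smooth muscle markers (5 of 5, 0 called) to 478 to 672 RPKM and 446 to 541 RPKM, and erythroid markers (6 of 7, 0 called) to 2736 to 4407 RPKM and 2549 to 4286 RPKM, with Hbb-bh1 at the fill-in value in 3 libraries. Hba-a1 gave most of the erythroid sum, 2711 to 4241 RPKM and 2464 to 4168 RPKM. Hbb-y was 49.6, 125 and 1.17 RPKM in Scx-/- and 59.2, 1.99 and 80.8 RPKM in Scx+/+. It was thus far lower in Scx-/- replicate 3 and Scx+/+ replicate 2, the 2 lowest libraries for 1 of the 6 erythroid markers. Hbb-y has 661 nt of exon, and the cause was not tested. Epicardial markers (7 of 7) summed to 20.95 to 27.9 RPKM in Scx-/- and 16.5 to 21.4 RPKM in Scx+/+, with 2 called higher, Upk1b and Aldh1a2, and 7 of 7 log2 fold changes above 0 (median 0.52). Leukocyte markers (7 of 7) summed to 31.4 to 52.2 RPKM and 39.4 to 42.8 RPKM, with 1 called higher, Cd68, and 5 of 7 log2 fold changes above 0 (median 0.35). Cd68 was low, at a mean of 0.654 RPKM over all libraries, and was at the fill-in value in Scx+/+ replicate 2. Lyz2, the most abundant of these markers, had a log2 fold change of -0.08. Chondrogenic markers summed to 5.60 to 9.24 RPKM and 6.05 to 6.93 RPKM over 8 of 14 genes, highest in Scx-/- replicate 2, and the defining marker Col2a1 had no row in the table used here.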

How the data were processed

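RNA from 6 hearts, 3 Scx-/- and 3 Scx+/+, was sequenced with 1 library per embryo. By their methods and the submitters' processing notes, the authors aligned reads with TopHat 1.4.1 to mm9, counted reads in Ensembl exons with easyRNASeq and deposited RPKM, after a filter on low genes and with low values set to a common fill-in, 0.0949 RPKM in the table. RPKM are not counts, so no count test was run.

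Of 18810 identifiers, 18695 were found in a GENCODE annotation on mm9. Reads were recovered from RPKM and exon length (whole within 0.1 read for 98.45% to 98.57% of values under 1000 reads). Genotypes were compared on log2(RPKM + 0.1) by limma 3.58.1 (R 4.3.3), with a trend on mean level and without covariates, and p-values were adjusted over all genes by Benjamini-Hochberg. The threshold of the study, unadjusted p below 0.05, was used for calls, and adjusted values stand beside it. Ratios were tested by exact permutation. The same fit was tested on simulated data. Other steps used Python 3.11.15 with scipy 1.17.1, pandas 2.3.3, matplotlib 3.10.9 and numpy 2.4.6.

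The members, the lists of other network genes and of markers, and the tests were chosen with earlier results of these data known. By rule, the text names the members, Scx, in each list the called genes or otherwise the most abundant, and the 5 genes most like Vcan and Has2. Has3, the 4 context genes that did not overlap, Col1a1, Prrx1, Myh6, Myl4, Ttn, Hbb-y and genes called under an alternative were named after their values were seen. Of the latter 1 gene, and the promoter search of 1 member, are not reported here. The planned ratio of Acan to Vcan and the genes most like Acan were not run, since Acan had no row. Alternatives were pseudocounts of 0.01 and 1, a mean of at least 1 RPKM, no intensity trend, one-way ANOVA, quantile normalization, centring of libraries on their median, splines on GC content and exon length (5 degrees of freedom each) taken out of every library, the replicate number as a block, each library left out, and, chosen after seeing the data, Scx-/- replicate 3 and Scx+/+ replicate 2 left out together.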

Additional observations from a re-analysis of the deposited data

How the results depend on the processing

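No network gene was called under the alternatives that kept all 6 libraries, under the added one without Scx-/- replicate 3 and Scx+/+ replicate 2, or with the replicate number as a block, where the log2 fold changes were -0.01 for Vcan and 0.77 for Has2. Leaving out single libraries, Has2 was called once, without Scx-/- replicate 1 (1.14, unadjusted p = 0.0284 and adjusted p = 1.00 from limma), so that the count of called members ran from 0 to 1. The log2 fold change ran from -0.35 to 0.21 for Vcan, from -0.20 to 0.45 for Cd44, from 0.31 to 1.14 for Has2 and from 0.07 to 0.44 for Ugdh with each library left out, and the median of the members from -0.01 to 0.43. Vcan was also above 0, at 0.06, with the length and GC trend removed. The log2 ratio of Cd44 to Vcan ran from -0.06 to 0.25, and the other 4 ratios kept their sign. Of the 55 other genes, 1 was called with genes of at least 1 RPKM only (Dse), 1 by one-way ANOVA (Adamts9), 2 without Scx-/- replicate 3 and Scx+/+ replicate 2 (Dse and Csgalnact2), and 0 to 2 with each library left out (Dse without Scx-/- replicate 3, Chsy3 and Chst14 without Scx+/+ replicate 1, Csgalnact2 and Itih5 without Scx+/+ replicate 2). Of the genes named, Tmem2 ran from -0.22 to 0.16, Adamts1 from -0.14 to 0.08 and Chsy1 from -0.08 to 0.31. The causes of these changes were not tested.

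Same-numbered libraries did not deviate together (correlations 0.092, -0.22 and -0.188 over genes of at least 1 RPKM), so the numbers were not taken as pairs, and the replicate block changed no call of a member. Over all genes, 731 were called (531 higher and 200 lower), 573 with the block, 1549 without Scx+/+ replicate 2 and 1587 without Scx-/- replicate 3 and Scx+/+ replicate 2. The split of higher against lower calls was 352 to 353 after quantile normalization, 281 to 365 with libraries centred on their median and 299 to 362 with the length and GC trend removed, which moved the median of all genes from 0.105 to 0.016, -0.005 and 0.014. Each member rested on at least 434 reads in every library.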
